A study of Mus musculus with 11 samples.

Results

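The 9 genes described here belong to the thick ascending limb and were followed through 11 arrays of kidney tubules: Umod, Slc12a1, Kcnj1, Bsnd, Cldn10, Cldn16, Cldn19, Wnk1 and Egf. A probe set stood for a gene only if it carried that 1 gene symbol, and where several did the one with the highest mean over all arrays was kept, which gave 9 of the 22180 genes measured in this way. The arrays comprised 5 from THP -/- mice, whose genotype removes Tamm-Horsfall protein and which are called THP_KO here, and 6 from wild-type (WT) mice. All mice were 129/SvEv, no treatment or age is stated in the labels, and the RNA came from tubules labelled as the S3 part of the proximal tubule. Batch 1 held 3 THP_KO and 5 WT arrays and batch 2 held 2 THP_KO arrays and 1 WT array. Nothing in the labels ties an array to a mouse of its own, and p-values therefore reflect only how much the arrays varied, which may be technical. The labels also leave unsaid which part of Umod was deleted.

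The thick ascending limb is the stretch of the nephron that takes up salt without water. It lies beside the S3 tubule in the outer medulla. Sodium, potassium and chloride enter its cells through NKCC2 (Slc12a1), potassium returns to the lumen through ROMK (Kcnj1), and chloride leaves through channels that need the subunit barttin (Bsnd). The lumen becomes positive, which drives cations between the cells through pores made of claudins. Uromodulin, the product of Umod and another name for Tamm-Horsfall protein, is the most abundant protein of normal urine and is made mainly in this segment.

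The RefSeq table of promoter windows, build GRCm38.p6, held 8 of the 9 genes in 11 windows, each from 250 bases before to 50 bases after a transcript start. Umod is shown because it is the gene deleted in the mice, and Slc12a1 because its cotransporter defines the segment. Cldn10 is shown because it has 2 starts, and whether its probe set tells them apart is unknown. The capital letter marks the first transcribed base.
Umod, chr7:119479213-119479512, minus strand: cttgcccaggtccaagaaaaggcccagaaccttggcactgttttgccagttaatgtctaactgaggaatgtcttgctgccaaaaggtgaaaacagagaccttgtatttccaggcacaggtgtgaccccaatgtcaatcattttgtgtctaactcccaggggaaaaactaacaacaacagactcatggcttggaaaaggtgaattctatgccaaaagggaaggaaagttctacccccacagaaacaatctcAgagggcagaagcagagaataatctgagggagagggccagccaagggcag
Slc12a1, chr2:125152350-125152649, plus strand: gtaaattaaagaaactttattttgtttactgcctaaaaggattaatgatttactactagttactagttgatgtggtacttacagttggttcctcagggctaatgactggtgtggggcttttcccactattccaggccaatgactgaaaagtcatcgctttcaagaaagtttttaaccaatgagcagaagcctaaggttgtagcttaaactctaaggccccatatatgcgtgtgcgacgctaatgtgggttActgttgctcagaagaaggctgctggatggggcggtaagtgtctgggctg
Cldn10, upstream start, chr14:118787621-118787920, plus strand: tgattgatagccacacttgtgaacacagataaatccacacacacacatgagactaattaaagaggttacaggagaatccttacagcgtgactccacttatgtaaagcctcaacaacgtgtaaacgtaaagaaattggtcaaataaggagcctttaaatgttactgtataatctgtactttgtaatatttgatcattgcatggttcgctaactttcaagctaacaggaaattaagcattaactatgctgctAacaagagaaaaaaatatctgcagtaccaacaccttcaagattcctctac
Cldn10, downstream start, chr14:118854700-118854999, plus strand: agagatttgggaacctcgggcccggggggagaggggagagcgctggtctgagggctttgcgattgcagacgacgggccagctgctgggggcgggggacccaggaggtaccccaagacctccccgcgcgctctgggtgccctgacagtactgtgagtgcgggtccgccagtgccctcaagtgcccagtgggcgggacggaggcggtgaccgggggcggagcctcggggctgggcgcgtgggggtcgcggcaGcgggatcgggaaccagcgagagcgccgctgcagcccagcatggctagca
AAGGTCA, a core of estrogen-related receptor sites, was searched on both strands and was in none of the 11 windows, against 4.72% of all 32851 windows. That says only that these letters are not in these windows.

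Each array gave deposited log2 signals for 41345 probe sets, with array medians between 3.85 and 4.01 and upper quartiles between 4.97 and 5.07. Correlations between arrays over all probe sets ran from 0.901 to 0.955. The S3 markers were high, and all 13 measured genes of that list had a mean above every array median, with list means of 8.65 to 9.71 in THP_KO arrays and 8.09 to 9.21 in WT arrays. Their fitted means were higher in THP_KO for all 13, where 53.4% of all genes were, and 3 had an unadjusted p under 0.05, where 3.64% of all genes were higher at such a p. The median was 0.36 on the log2 scale, and 0.29 with 12 higher without THP_KO replicate 4. Of the markers of the earlier S1 and S2 parts 9 of 10 were lower, with a median of -0.24, and -0.31 without that array. Among them Slc22a8 and Slc5a12 were lower at an unadjusted p under 0.05, where 2% of all genes were. THP_KO replicate 4 stood apart from the other arrays in genes of later nephron segments, described further on, and the genotype differences of the 9 genes and of the lists of thick ascending limb, WNK and EGF genes are given with and without it. The number of arrays limits the precision, and no values of detection above background were used.

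**Figure D1:**
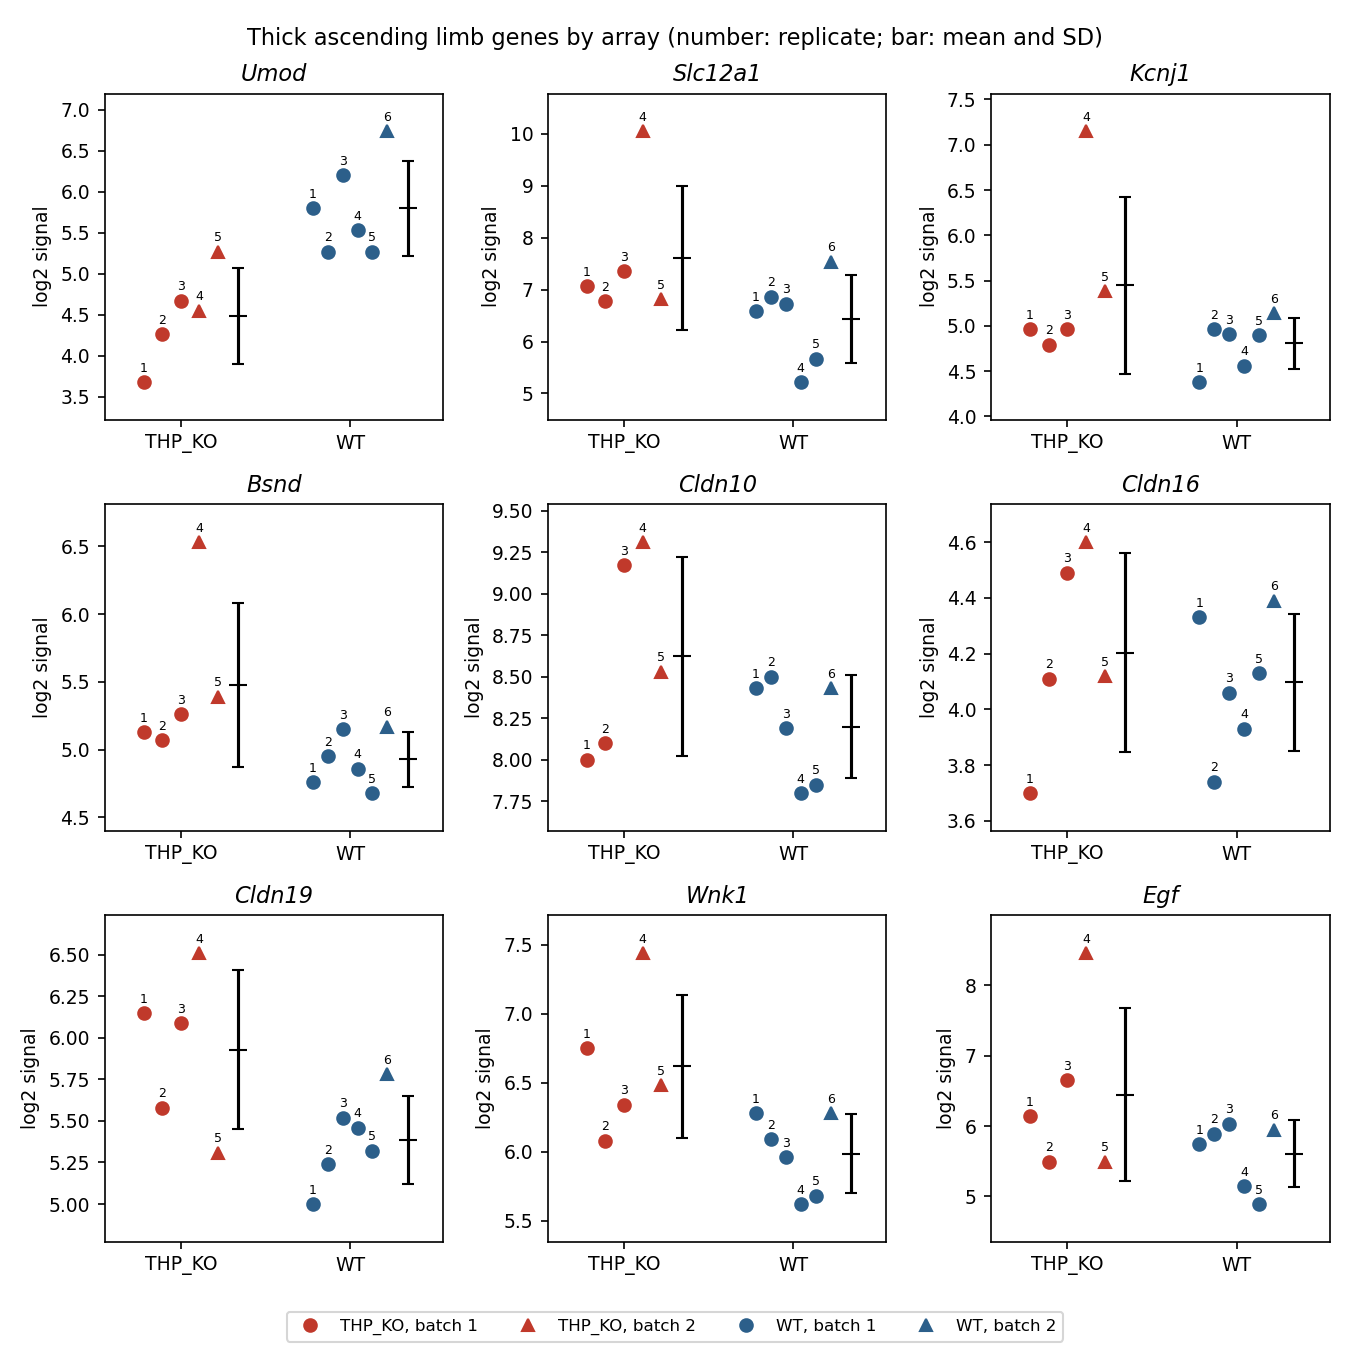
Log2 signal of each gene by array, THP_KO left and WT right in each panel, with the replicate number above each point, circles for batch 1, triangles for batch 2, and a bar for the mean and SD. Umod is lower in THP_KO, and THP_KO replicate 4 is the highest array in the 8 other panels.

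The fitted differences of Umod and of the other 8 genes lay on opposite sides of 0. Umod (Entrez 22242) had lower signal in THP_KO arrays, whereas all 8 others had a higher fitted mean there, by a median of 0.46 on the log2 scale, against a median of 0.01 over all genes. None of the 9 passed an adjusted p of 0.05 (limma with genotype and batch as terms, Benjamini-Hochberg over all probe sets), as was the case for 0% of all 41345 probe sets. At an unadjusted p under 0.05 there were 3 of the 9, where 6.16% of all probe sets had such a p. They were Cldn19 and Wnk1, higher in THP_KO as 3.4% of probe sets were, and Umod, lower as 2.76% were. All 8 others were higher, and so were 53.4% of all genes. Without THP_KO replicate 4 the median of the 8 was 0.30, 7 were higher where 54.1% of genes were, and 2 of the 9, Umod and Wnk1, kept an unadjusted p under 0.05, as did 5.59% of probe sets. The S3 markers also leaned higher in THP_KO, and their part in these differences was not tested.

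Umod read 3.68, 4.26, 4.67, 4.55 and 5.27 in THP_KO replicates 1 to 5, against a lowest value of 5.27, a median of 5.67 and a highest of 6.74 in WT. Of the knockout arrays 4 lay below every WT array and the other, replicate 5, equalled the lowest, WT replicates 2 and 5. The fitted log2 difference was -1.52 ± 0.24 (SE), with a 95% interval from -2.06 to -0.98 and an adjusted p of 0.281 (limma), and was -1.42 ± 0.24 without THP_KO replicate 4. Its p ranked 9th among all probe sets, and the two-sided exact permutation test of genotype within batches gave p = 0.00595, the smallest that its 168 arrangements allow. Whether the knockout signal exceeded background is unknown, and a fold change is therefore left out.

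Slc12a1 (Entrez 20495), the cotransporter that loop diuretics block, read 7.06, 6.78, 7.35, 10.05 and 6.82 in THP_KO replicates 1 to 5, against 5.22, 6.66 and 7.54 for the lowest, median and highest WT array. THP_KO replicate 4 was 2.70 above the next knockout array and 2.51 above the highest WT array, while the other 4 fell inside the WT range. The fitted difference was 0.86 ± 0.53 (SE; limma adjusted p = 0.840), and 0.52 ± 0.38 without replicate 4 (adjusted p = 0.908). The exact within-batch permutation p on all arrays was 0.244.

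Kcnj1 (Entrez 56379), the channel that recycles potassium to the lumen for the cotransporter, read 4.96, 4.79, 4.96, 7.15 and 5.38 in THP_KO arrays, against 4.38, 4.91 and 5.14 for the lowest, median and highest WT array. Replicate 4 carried most of the Kcnj1 difference, which was 0.41 ± 0.30 (SE) with all arrays and 0.18 ± 0.14 without it. Without WT replicate 6, the only WT array of batch 2, the difference was 0.16. That is the difference within batch 1, since batch 2 then holds no WT array to compare. The limma adjusted p was 0.858 with all arrays and 0.916 without replicate 4.

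Bsnd (Entrez 140475), the barttin subunit also used by distal and intercalated cells and by the inner ear, read 5.13, 5.07, 5.26, 6.53 and 5.39 in THP_KO arrays, against 4.68, 4.91 and 5.17 for the lowest, median and highest WT array. In 3 knockout arrays, replicates 3, 4 and 5, it lay above every WT array. The fitted difference was 0.41 ± 0.20 (SE; limma adjusted p = 0.823), and 0.26 ± 0.12 without THP_KO replicate 4 (adjusted p = 0.890).

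The fitted differences of the claudins were not tested against each other. Cldn10 (Entrez 58187) forms a sodium pore in the thick ascending limb in one isoform and an anion pore in the proximal tubule in another, so its signal here need not come from the thick ascending limb. It read 8.0, 8.10, 9.17, 9.31 and 8.53 in THP_KO arrays, against 7.80, 8.31 and 8.50 for the lowest, median and highest WT array. Its high knockout arrays were replicates 3 and 4, and its difference of 0.33 ± 0.25 (SE; limma adjusted p = 0.864) was 0.09 without replicate 3 and 0.23 ± 0.25 without replicate 4.

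Cldn16 (Entrez 114141) and Cldn19 (Entrez 242653) act together in the uptake of magnesium and calcium between cells, and loss of either causes magnesium wasting in humans. Cldn16 was near the array medians, with 3.70, 4.11, 4.49, 4.60 and 4.12 in THP_KO arrays, against 3.74, 4.10 and 4.39 for the lowest, median and highest WT array. Its difference was 0.04 ± 0.17 (SE), with a 95% interval from -0.34 to 0.42 (limma adjusted p = 0.982), and its sign turned without WT replicate 2, THP_KO replicate 3 or THP_KO replicate 4, where it was -0.02, -0.10 and -0.01.

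Cldn19 read 6.15, 5.58, 6.09, 6.51 and 5.31 in THP_KO arrays, against 5.0, 5.39 and 5.78 for the lowest, median and highest WT array. The 3 knockout replicates 1, 3 and 4 exceeded all WT arrays. The difference was 0.50 ± 0.22 (SE; limma unadjusted p = 0.0483, adjusted p = 0.809), and 0.40 ± 0.21 without replicate 4. A second Cldn19 probe set, with a lower mean, gave 0.37 ± 0.13 (SE; adjusted p = 0.761). Exact permutation within batches gave p = 0.0238 for it and p = 0.0833 for the first. In that probe set replicate 4, at 5.43, was not the highest knockout array.

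Wnk1 (Entrez 232341), a kinase that acts through SPAK and OSR1 to activate cation-chloride cotransporters and is expressed in most tissues, read 6.75, 6.08, 6.34, 7.44 and 6.48 in THP_KO arrays, against 5.62, 6.03 and 6.28 for the lowest, median and highest WT array. All knockout arrays but replicate 2, or 4 of 5, lay above every WT array. Its difference of 0.52 ± 0.21 (SE; limma unadjusted p = 0.0304, adjusted p = 0.774) was 0.41 ± 0.18 without THP_KO replicate 4 (unadjusted p = 0.0462, adjusted p = 0.890). The exact within-batch permutation p was 0.0655.

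Egf (Entrez 13645), a growth factor made in the thick ascending limb and the distal convoluted tubule that stimulates magnesium uptake, read 6.14, 5.49, 6.65, 8.46 and 5.49 in THP_KO arrays, against 4.89, 5.82 and 6.03 for the lowest, median and highest WT array. The pattern over arrays was that of Slc12a1, with replicate 4 at 1.81 above the next knockout array and 2.43 above the highest WT array. The difference was 0.68 ± 0.48 (SE; limma adjusted p = 0.856), and 0.34 ± 0.31 without replicate 4. A second probe set that carried Egf and another symbol was not used.

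**Figure D2:**
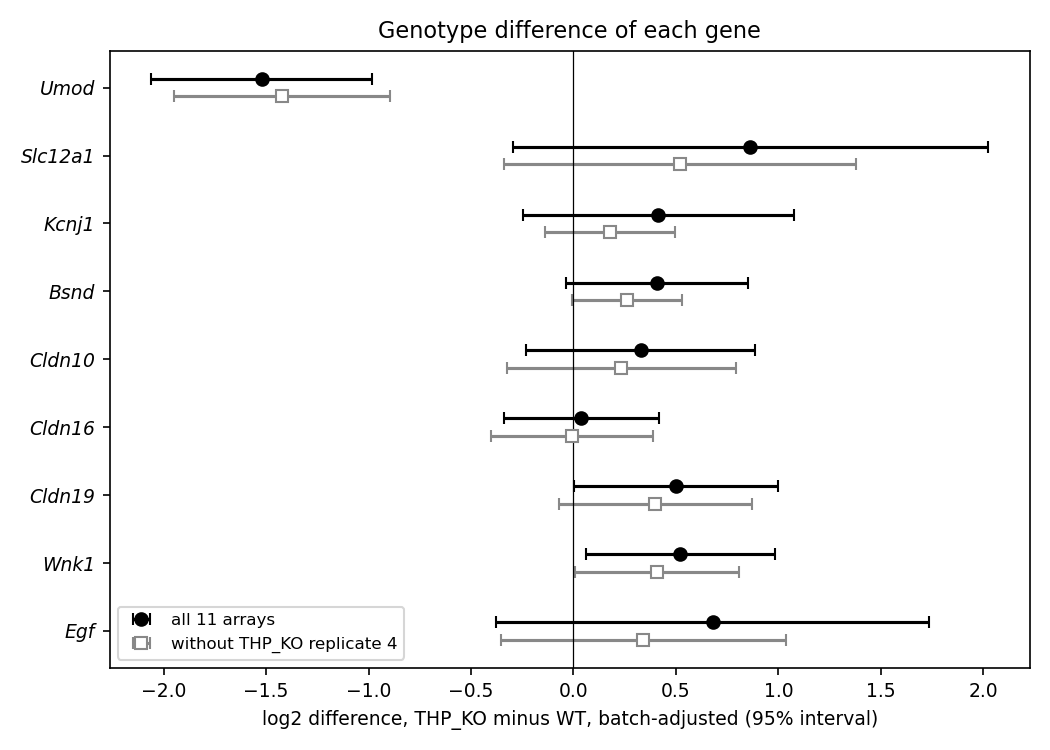
Batch-adjusted log2 difference, THP_KO minus WT, with its 95% interval for each gene, from all 11 arrays (filled) and without THP_KO replicate 4 (open). The Umod interval lies below 0 in both fits, and the Slc12a1, Kcnj1 and Egf differences are smaller without that array.

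Batch 1 does not hold THP_KO replicate 4, and its arrays are part of the fits above. Within it the differences of the 8 genes other than Umod ran from 0.06 for Cldn16 to 0.85 for Slc12a1, and Umod was at -1.41. The share of all genes higher in THP_KO within batch 1 was not computed, so these signs are description only. Within batch 2 the Umod difference was -1.83, Kcnj1 was at 1.13 and Cldn16 at -0.03. Batch 2 rests on 3 arrays. There THP_KO replicate 5 was below WT replicate 6 by 0.72 for Slc12a1 and by 0.46 for Egf, and above it by 0.24 for Kcnj1.

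THP_KO replicate 4 was the highest of the 11 arrays for all 8 genes other than Umod, against 13% of all genes. Its Umod signal, 4.55, was the third of the 5 knockout arrays in order. In bulk tissue a larger share of thick ascending limb cells and more RNA per cell cannot be told apart. The mean of the 8 genes was 5.99, 5.75, 6.29, 7.51 and 5.94 in THP_KO replicates 1 to 5, against a lowest of 5.32 and a highest of 6.09 in WT arrays. The WT array with the highest mean of the 8, replicate 6, also had the highest Umod. The knockout array with the highest mean of the 8 had an Umod signal lower by 2.19 than that WT array.

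**Figure D3:**
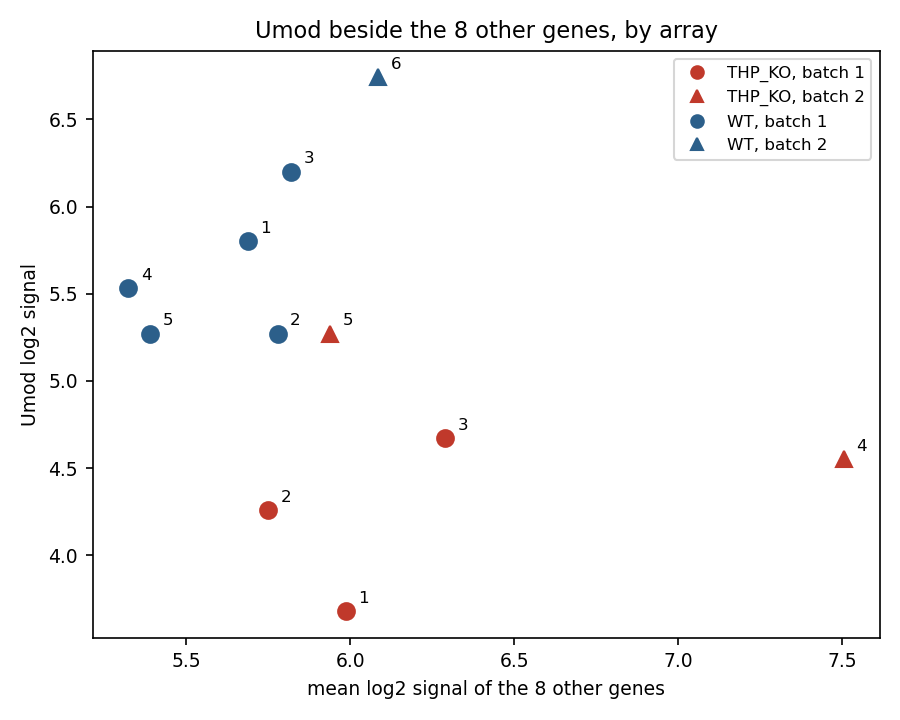
Umod log2 signal (vertical axis) against the mean log2 signal of the 8 other genes (horizontal axis) for each array, with replicate numbers, colour for genotype and shape for batch. THP_KO replicate 4 lies far to the right at 7.51 with an Umod signal of 4.55, below all WT arrays.

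With the mean of the 8 genes as a further term, the Umod difference was -1.43 ± 0.29 (SE), with a 95% interval from -2.08 to -0.78 and a limma adjusted p of 0.674. It was -1.62 ± 0.27 in the same fit without THP_KO replicate 4. In that fit 0% of probe sets passed the threshold, and THP_KO replicate 4 lay outside the range of the other arrays on the added term.

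How the Umod signal varied with that of the other genes was examined among arrays of the same genotype and batch, since the deletion itself sets the genotypes apart. The THP_KO arrays are included, and whether their Umod signal exceeded background is unknown. Spread of that signal among them need not be Umod expression. Values that pool both genotypes therefore cannot show whether Umod expression followed these genes, and are given as description. After removal of genotype and batch, the Pearson correlation of Umod with the 8 genes over 11 arrays ran from -0.51 for Kcnj1 to 0.40 for Cldn16, positive in 2 of 8 where 49.8% of all genes had a positive slope on Umod, with permutation p from 0.107 to 0.627. For Slc12a1 it was -0.19 (permutation p = 0.574; Spearman rho -0.18, permutation p = 0.596), and -0.23 without the 2 arrays farthest from the Umod median, THP_KO replicate 1 and WT replicate 6. Slopes on Umod fitted over all probe sets gave 0 calls at an adjusted p of 0.05 (limma), 0% of probe sets, and 2.75% at an unadjusted p under 0.05. Without THP_KO replicate 4 the correlation was positive in 6 of 8, where 47.2% of all genes had a positive slope, from -0.17 for Kcnj1 to 0.70 for Cldn16, with Bsnd at 0.58, Cldn10 at 0.54, Egf at 0.45 and Slc12a1 at 0.30. The sign therefore depended on that array for Slc12a1, Bsnd, Cldn19 and Egf. Kcnj1 and Wnk1 stayed negative, and Cldn10 and Cldn16 stayed positive. None of the 8 slopes passed with or without that array.

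Batch could not be removed in the 6 WT arrays alone, since replicate 6 was the only WT array of batch 2, and batch 1 held too few WT arrays for a correlation. That array had the highest WT signal of Umod, Slc12a1, Kcnj1, Bsnd, Cldn16 and Cldn19, and shared the highest of Wnk1 with WT replicate 1. Batch and the level of these genes therefore cannot be told apart there. Over the 6 arrays the correlations with Umod were positive for all 8 genes, from 0.36 for Kcnj1 to 0.78 for Bsnd, while 52.7% of all genes had a positive slope there. None of the 8 slopes had an unadjusted p under 0.05 (limma), as 5.23% of probe sets did, 3.04% with a positive slope. Bsnd had a Spearman rho of 0.70, and exact permutation tests gave p = 0.0889 for its Pearson and p = 0.144 for its rank correlation. Slc12a1 had r = 0.68 (exact permutation p = 0.117; rho 0.46, exact permutation p = 0.372), and the lowest exact p among the 8 was that of Bsnd. Without WT replicates 3 and 6, the arrays with the most Umod, fewer arrays were left than batch 1 held in WT. They are too few for r to be read as a relation, and the values are given as description only. There r was -0.17 for Bsnd, 0.07 for Slc12a1, -0.98 for Kcnj1, -0.56 for Cldn19, 0.22 for Cldn10 and 0.28 for Egf. For Wnk1 it was 0.47 and for Cldn16 0.68, against 0.57 and 0.68 with those 2 replicates.

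The slopes of the 8 genes on Umod were not shown to differ between genotypes. In THP_KO arrays these are slopes on a signal that may be background, so the comparison cannot decide whether the relation to Umod expression differs. The limma test of the difference gave an unadjusted p from 0.0923 for Cldn19 to 0.916 for Cldn16, and 0% of probe sets passed after adjustment, with 3.7% at an unadjusted p under 0.05. Without THP_KO replicate 4 the slope for Slc12a1 was 0.51 ± 0.56 and for Egf 0.61 ± 0.43 (SE), against -0.43 ± 0.72 and -0.34 ± 0.65 with it. The sign of both also turned without THP_KO replicate 5, where the slopes were 0.021 and 0.045.

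The genes whose pattern was most like the Umod signal after removal of genotype and batch were on none of the lists of kidney genes used here. The THP_KO arrays, where that signal may be background, are part of this ranking. The 5 highest correlations over 11 arrays were those of the olfactory receptors Olfr986 (r = 0.94) and Olfr1189 (0.89), Pwwp2b (0.93), the cilia protein gene Spef1 (0.93) and the zinc finger gene Zfp300 (0.89). The 5 lowest were Brpf3 (-0.92), the vomeronasal receptor Vmn1r217 (-0.91), the RNA-binding protein gene Rbm25 (-0.89), the neuron navigator Nav1 (-0.88) and the pregnancy-specific glycoprotein gene Psg27 (-0.88). None of the 10 slopes passed (limma adjusted p = 1). Olfr1189, Psg27, Zfp300, Vmn1r217 and Olfr986 were dim, with group means of at most 2.28, 2.45, 2.97, 3.04 and 3.61. Those means lay below all array medians (3.85 to 4.01), and whether these genes were detected is unknown. The means of Pwwp2b, Spef1, Brpf3, Rbm25 and Nav1 lay above all array medians. Among 22179 other genes, Cldn16 ranked 2317th by this correlation and Slc12a1 15687th.

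Relations with Slc12a1 were examined in the same way, a choice made after seeing the data and given as description. After removal of genotype and batch, r with Slc12a1 was positive for all 7, from 0.40 for Cldn16 to 0.95 for Egf. Egf had the 5th highest r with Slc12a1 among 22179 genes (permutation p = 4.00e-05; rho 0.92, permutation p = 0.00018), and r was 0.92 without THP_KO replicate 4 and WT replicate 4, the arrays farthest from the Slc12a1 median. Its slope on Slc12a1 was 0.86 ± 0.11 (SE; limma adjusted p = 0.146), and 0.70 ± 0.15 without THP_KO replicate 4. Without that array r was 0.87, 145th among the genes.

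Wnk1 and Bsnd came next, with r = 0.84 (permutation p = 0.00062; rho 0.87, permutation p = 0.00072) and r = 0.82 (permutation p = 0.00272; rho 0.75, permutation p = 0.0107). For Kcnj1 r was 0.75 (permutation p = 0.0101, with rho 0.64 and permutation p = 0.0374) but -0.08 without the 2 farthest arrays, so the value over 11 arrays depended on those samples. Cldn10 had r = 0.71 (permutation p = 0.011, with rho 0.71 and permutation p = 0.0176) and 0.56 without them. In the 6 WT arrays alone, with batch not removed, r with Slc12a1 ran from 0.28 for Cldn19 to 0.89 for Wnk1. There Kcnj1 had r = 0.53 (exact permutation p = 0.233) and rho 0.83 (exact permutation p = 0.0583). In all, 15 relations were computed, 8 with Umod and 7 with Slc12a1. None passed in the limma fits over all probe sets, where 0.00242% of probe sets passed for the slope on Slc12a1. At an unadjusted p under 0.05 there were 6 of the 7, all but Cldn16, where 10.4% of probe sets had such a slope. Cldn19 lay just under that limit (limma unadjusted p = 0.04998). Its slope of 0.25 ± 0.11 (SE) was 0.0011 without THP_KO replicate 5, and its rho with Slc12a1 was 0.41 (permutation p = 0.214). Without THP_KO replicate 4 there was 1 of the 7, Egf, where 9.41% of probe sets did, and r for Kcnj1 and Bsnd was 0.20 and 0.51.

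**Figure D4:**
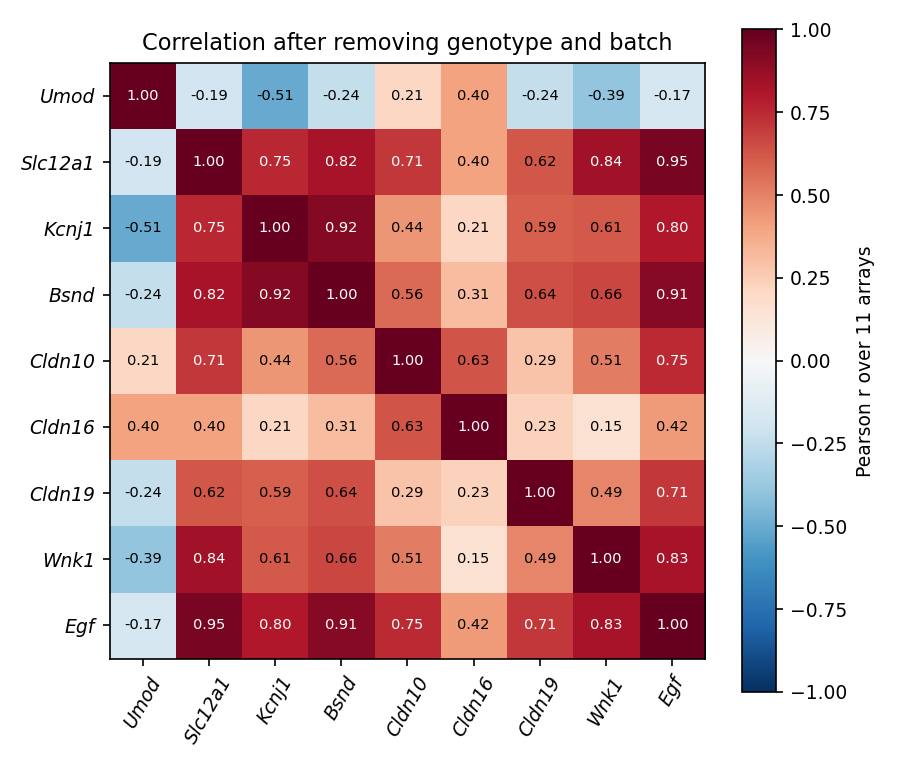
Pearson correlation between the 9 genes over 11 arrays after genotype and batch were removed, printed in each cell and coloured from -1 (blue) to 1 (red). The Slc12a1, Kcnj1, Bsnd, Wnk1 and Egf block is positive, with 0.95 for Slc12a1 and Egf, and the Umod row holds values from -0.51 to 0.40.

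Other transport and hormone-response genes of the thick ascending limb, none of them among the 9, were spread on both sides of 0. Of 17 measured genes in that list, 10 were higher in THP_KO, where 53.4% of all genes were, and 7 lower. At an unadjusted p under 0.05 (limma) 1 was higher, where 3.64% of all genes were, and 0 passed after adjustment. The median difference was 0.10, against 0.01 for all genes, and -0.02 without THP_KO replicate 4. The smallest p belonged to Mal, a proteolipid of apical membrane traffic (0.85 ± 0.35, SE, limma adjusted p = 0.774), then Sorl1, a sorting receptor that bears on NKCC2 activity (0.60 ± 0.29), Slc9a4 (-0.23 ± 0.14) and Nos1 (-0.24 ± 0.14).

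THP_KO replicate 4 was the highest array for 8 of these 17 genes, against 13% of all genes. The calcium-sensing receptor Casr was at 5.28 there, with 4.40 the highest of the other knockout arrays and 4.62 the highest WT array. The prostaglandin receptor Ptger3 was at 6.20 there, with 4.69 and 4.88 as the highest of the other knockout and of the WT arrays.

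Among 14 identity and marker genes of the segment, 8 were higher, where 53.4% of all genes were, and 6 lower, with a median of 0.04. Of these genes 0 had an unadjusted p under 0.05 (limma), where 3.64% of all genes were higher and 2% lower. The sign of the median turned without THP_KO replicate 4 (-0.0079, with 7 higher), without WT replicate 4 (-0.011) and under quantile normalization (-0.0058). Wfdc15b, a whey acidic protein family gene, had the smallest p at 1.10 ± 0.55 (SE, limma adjusted p = 0.823), followed by Tmem207 (0.57 ± 0.35), the sulfotransferase Sult1d1 (0.31 ± 0.20) and the transcription factor Foxq1 (-0.25 ± 0.16). Wfdc15b and the phosphatase inhibitor Ppp1r1a read 9.08 and 8.78 in THP_KO replicate 4, against 7.07 and 6.88 at most in the other knockout arrays and 5.86 and 6.83 at most in WT arrays. That array was the highest for 7 of the 14 genes, against 13% of all genes.

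In the list of WNK, SPAK and OSR1 control of cotransport, 12 of 16 genes were higher, where 53.4% of all genes were, with a median of 0.15. At an unadjusted p under 0.05 (limma) there were 0, where 3.64% of all genes were higher and 2% lower. The ubiquitin ligase Nedd4l (0.47 ± 0.23), the potassium-chloride cotransporter Slc12a4 (0.45 ± 0.22), SPAK itself, Stk39 (0.46 ± 0.24), and the secretory cotransporter Slc12a2 (0.36 ± 0.21; all SE) had the smallest p, with limma adjusted p from 0.822 to 0.830. Without THP_KO replicate 4 the median was 0.04, with 10 higher where 54.1% of genes were. That array was the highest for 8 of the 16 genes, against 13% of all genes.

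For the EGF family, its receptors and magnesium transport, 9 of 12 genes were higher, where 53.4% of all genes were, with a median of 0.10. Here too 0 had an unadjusted p under 0.05 (limma), where 3.64% of all genes were higher and 2% lower. The median was 0.08, with 10 higher where 54.1% of genes were, when THP_KO replicate 4 was left out. The receptor Egfr was at 0.22 ± 0.10 (SE, limma adjusted p = 0.813), the ligand Tgfa at 0.28 ± 0.14, and the receptors Erbb2 and Erbb4 at -0.25 ± 0.15 and 0.19 ± 0.14. THP_KO replicate 4 was the highest array for 2 of the 12, against 13% of all genes.

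Markers of other nephron segments moved with the members in THP_KO replicate 4. It was the highest array for 9 of 9 markers of the distal convoluted and connecting tubule, against 13% of all genes. The mean of that list was 6.45 there, 4.40 to 5.32 in the other knockout arrays and 4.11 to 4.97 in WT arrays. Slc12a3, the thiazide-sensitive cotransporter, read 9.08 there, at most 7.20 in the other knockout arrays and at most 7.24 in WT arrays. The collecting duct principal cell list had a mean of 5.52 there and at most 4.69 and 4.84 in the other knockout and the WT arrays, with the water channel Aqp2 at 8.48, and the intercalated cell list had a mean of 4.94 there and at most 4.12 and 4.35.

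The S3 list had a mean of 9.37 in that array, the second highest of all 11. The S1 and S2 list and the thin limb list reached 7.70 and 5.27 in knockout arrays and 7.73 and 5.26 in WT arrays. Endothelial, leukocyte, stromal and podocyte lists reached at most 4.89, 4.46, 4.47 and 4.19 in knockout arrays and 4.74, 4.48, 4.44 and 4.34 in WT arrays. THP_KO replicate 4 was the highest array for the thin limb, endothelial and stromal lists too, though not for the leukocyte and podocyte lists. Of the distal convoluted and connecting tubule genes 6 of 9 had a mean above every array median. Without THP_KO replicate 4 the median difference of that list was 0.02, against 0.18 with it. The part of these segments in the genotype differences of the 8 genes was not tested.

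**Figure D5:**
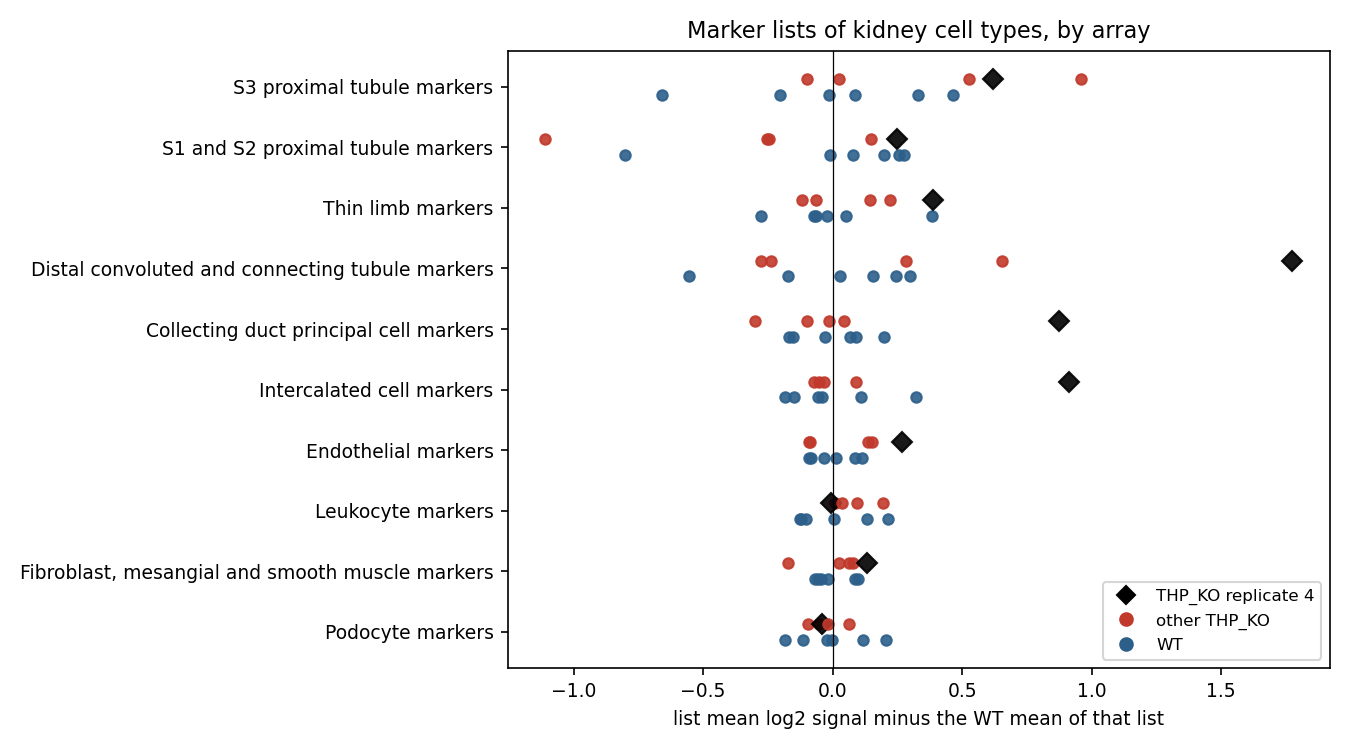
Mean log2 signal of each marker list in each array, less the WT mean of that list, with THP_KO above WT in each row and THP_KO replicate 4 as a diamond. That array lies farthest to the right for the distal convoluted and connecting tubule, principal cell and intercalated cell lists. By smaller margins it is also the highest for the thin limb, endothelial and fibroblast, mesangial and smooth muscle lists.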

How the data were processed

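The deposited table holds log2 values for 41345 probe sets on 11 arrays. Per the submitters' processing notes the authors used Partek 6.6 and RMA, a method that makes array distributions alike, so that a shift common to most genes would be lost. The sources used here do not state whether batch was corrected before deposit. RNA came from a kit for very small samples, per the labels, which can add spread between arrays. Of the probe sets 23521 carried 1 gene symbol in the platform annotation, 1814 several and 16010 none.

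Differences were tested with limma 3.58.1 in R 4.3.3 (two-sided; residual degrees of freedom 8, prior 2.90) with genotype and batch as terms, no filter on dim probe sets and Benjamini-Hochberg adjustment over all probe sets at 0.05. The same models ran on simulated data as a check. Exact permutations kept the batches, and residual correlations were permuted 100000 times. Plots used matplotlib 3.10.9. The members, gene lists and tests were chosen with earlier results of these data known. Named are the 9 genes, the 4 genes with the smallest p of each transport list, and the 5 genes most and least like Umod (predicted genes skipped). Genes named for their level in THP_KO replicate 4 (Casr, Ptger3, Ppp1r1a, Slc12a3 and Aqp2), and Slc22a8 and Slc5a12, were chosen after their values were seen. Alternatives were the batch terms, scaling, a dim filter, both Cldn19 probe sets, a covariate and each array left out.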

Additional observations from a re-analysis of the deposited data

Results flagged for a closer look

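THP_KO replicate 4 lay far from the other 4 knockout arrays for 3 genes, by the size of the gap to its nearest neighbour relative to the range of the group. Slc12a1 was at 10.05 there, with the next array at 7.35, Kcnj1 at 7.15, with the next at 5.38, and Bsnd at 6.53, with the next at 5.39. In all, 20 groups of values were examined in this way (the 9 genes and the mean of the 8 other than Umod, in each genotype), of which chance alone gives about 1, and values of different genes on 1 array are not independent.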

How the results depend on the processing

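The Umod difference stayed below 0 in every fit run, from -1.70 to -1.37 with each array left out in turn, -1.13 with the replicate block and -1.32 without batch. Its limma adjusted p ran from 0.179 to 0.619 over the settings without the other 8 genes as a term. With that term it was 0.674 with all arrays, and up to 0.948 with WT replicate 3 left out. No fit run took any of the 9 genes past the adjusted threshold. Same-numbered arrays did not deviate together over all probe sets (correlations from -0.18 to 0.01 over 5 pairs, none above 0.1). The replicate number was not used as a pairing in the main fits, and the labels do not say what it stands for. With the mean of the other members as a covariate the sign turned for Slc12a1 (-0.11), Kcnj1 (-0.026), Cldn16 (-0.083) and Egf (-0.30). Cldn16 ranged from -0.10 to 0.17 with each array left out. The count of probe sets past the threshold, 0 with all arrays, was 3 in batch 1 alone and 0 to 11 with each array left out, highest without THP_KO replicate 5.

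Slopes on Umod turned positive without the batch term for Slc12a1 (0.59), Kcnj1 (0.26), Bsnd (0.26), Wnk1 (0.13) and Egf (0.24), and in the 6 WT arrays for Slc12a1 (0.99), Kcnj1 (0.17), Bsnd (0.27), Cldn19 (0.31), Wnk1 (0.28) and Egf (0.51). With each array left out they ran from -0.89 to 0.51 for Slc12a1, -0.45 to 0.22 for Bsnd, -0.20 to 0.58 for Cldn10, -0.46 to 0.035 for Cldn19 and -0.81 to 0.61 for Egf. The median of the EGF family list ran from 0.064 to 0.188, highest without THP_KO replicate 2. The upper ends of all 5 slope ranges came without THP_KO replicate 4, and the causes were not tested. The number of arrays and dim signals, as for Cldn16, limit what could be detected.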
